A study of Mus musculus with 12 samples.

Results

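Sp100, Sp110 and Sp140 are 3 neighbouring genes of mouse chromosome 1, and they were described here by where FLAG-tagged Zscan4 was listed on and around them. They were chosen by their regions in this same list, out of 49640 annotated genes, so that their counts, scores and positions are a description and carry no test. A region belonged to a gene when its midpoint lay in the gene body or within 50 kb of it, which gave 7 of the 4973 regions of the list. The 1 Mb window from 85 to 86 Mb that holds the genes had 11 regions, and its predicted genes were set against the rest of chromosome 1.

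The study used J1 cells, a mouse embryonic stem cell line labelled as strain 12910la, that overexpressed Zscan4c from a CMV-promoter plasmid with a FLAG tag, together with wild-type J1 cells. Overexpressing cells received 1000 ng of plasmid and, 24 h later, 500 ug/ml of G418 for 10 days, after which single clones were picked. Which clone gave the library is not stated. The 12 labelled samples form 12 groups of 1: a FLAG-Zscan4 immunoprecipitation and its input from overexpressing cells, and H3K27ac, H3K14ac and H3K4me1 immunoprecipitations and inputs from overexpressing and wild-type cells. The data analysed were the deposited list of FLAG-Zscan4 regions from overexpressing cells. The other samples were not analysed here. With 1 immunoprecipitation there was no replicate check, the depth is unknown, and every interval covers counting error only. The list holds regions past the authors' threshold, so that a gene without a region is not shown to be unbound. The authors' peak score has no stated scale and served to rank regions within the list.

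Sp100 is a constituent of PML nuclear bodies, the nuclear foci organised by the PML protein that hold SUMO-modified proteins and are linked to interferon responses and chromatin silencing. Sp110 and Sp140 are its relatives and share with it an amino-terminal dimerisation domain and a DNA-binding SAND domain. Sp110 is also called Ipr1, and Sp140 is known in mice for restraint of the type I interferon response in macrophages. In the mouse, a chimeric copy of Sp100 known as Sp100-rs has been amplified beside these genes, to very different copy numbers in different mice. Zscan4c is a zinc finger protein of the 2-cell embryo and of a transient state of embryonic stem cells.

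The start sites are shown first, because predicted genes of the window have start sequences nearly identical to those of 2 of the 3 genes. Each sequence is the RefSeq window of build GRCm38.p6 from 250 bases before to 50 after an annotated start, and all 3 genes had at least 1. The Sp100 window lies at chr1:85649764-85650063 on the plus strand, and its capitals mark a match of GAAA and GAAA with 3 letters between them on the opposite strand. The window of the predicted gene Gm7609 lies at chr1:85199361-85199660 on the plus strand, and its capitals mark the letters that differ from Sp100.
Sp100: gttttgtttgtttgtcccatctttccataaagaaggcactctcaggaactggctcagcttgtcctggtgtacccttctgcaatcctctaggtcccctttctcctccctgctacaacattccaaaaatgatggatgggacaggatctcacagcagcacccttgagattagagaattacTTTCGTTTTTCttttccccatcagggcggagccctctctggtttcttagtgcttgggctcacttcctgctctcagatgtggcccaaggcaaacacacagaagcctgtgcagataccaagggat
Gm7609: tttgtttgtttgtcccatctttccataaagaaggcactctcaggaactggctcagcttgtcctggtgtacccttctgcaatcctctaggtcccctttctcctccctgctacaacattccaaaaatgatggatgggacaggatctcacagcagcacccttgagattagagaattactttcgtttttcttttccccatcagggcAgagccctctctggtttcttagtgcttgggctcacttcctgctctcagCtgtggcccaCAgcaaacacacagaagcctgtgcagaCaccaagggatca

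Aligned without cost for the ends, Gm7609 matched Sp100 at 293 of 298 letters (98.3%), with 5 mismatches and no gap, and the longest identical run was 202 bases. The 2 starts lie 450 kb apart on the same strand. The Sp140 window lies at chr1:85600453-85600752 on the plus strand. Those of A530032D15Rik (chr1:85109804-85110103) and C130026I21Rik (chr1:85270517-85270816) lie on the minus strand, and their capitals mark the letters that differ from Sp140.
Sp140: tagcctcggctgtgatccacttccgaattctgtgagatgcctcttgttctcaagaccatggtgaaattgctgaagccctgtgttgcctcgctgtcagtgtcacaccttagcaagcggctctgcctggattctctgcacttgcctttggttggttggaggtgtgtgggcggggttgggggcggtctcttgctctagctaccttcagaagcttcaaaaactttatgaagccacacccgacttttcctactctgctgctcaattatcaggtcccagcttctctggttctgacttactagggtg
A530032D15Rik: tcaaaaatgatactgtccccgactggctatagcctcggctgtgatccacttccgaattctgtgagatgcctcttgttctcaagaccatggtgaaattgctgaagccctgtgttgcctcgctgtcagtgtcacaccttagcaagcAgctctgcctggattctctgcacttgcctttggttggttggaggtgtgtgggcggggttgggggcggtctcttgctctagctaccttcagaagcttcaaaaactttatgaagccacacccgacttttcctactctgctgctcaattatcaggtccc
C130026I21Rik: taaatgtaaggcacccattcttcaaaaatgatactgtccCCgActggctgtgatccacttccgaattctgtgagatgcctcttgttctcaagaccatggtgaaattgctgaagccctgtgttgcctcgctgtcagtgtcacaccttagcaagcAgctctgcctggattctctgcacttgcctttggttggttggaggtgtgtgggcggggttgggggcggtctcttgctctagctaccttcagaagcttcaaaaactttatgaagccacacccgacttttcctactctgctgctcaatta

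A530032D15Rik matched Sp140 at 270 of 271 aligned letters (99.6%), with 1 mismatch. C130026I21Rik matched it at 257 of 262 (98.1%), with 4 mismatches and 1 missing letter. All but 1 of these mismatches, and the missing letter, fell among the first letters of the Sp140 window. Between themselves, these 2 predicted genes had no mismatch over 291 aligned columns, and C130026I21Rik lacked 12 letters that A530032D15Rik has. The missing letters lie where the Sp140 window begins, so that the differences marked at that edge depend on the alignment.

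Sp110 has 2 annotated starts on the minus strand, 5.08 kb apart. Its upstream start (chr1:85603842-85604141) is shown because a FLAG-Zscan4 region lies beside it, with a run that occurs 3 times in capitals. Its downstream start (chr1:85598761-85599060) is shown with the same match as at Sp100 in capitals.
Sp110 upstream start: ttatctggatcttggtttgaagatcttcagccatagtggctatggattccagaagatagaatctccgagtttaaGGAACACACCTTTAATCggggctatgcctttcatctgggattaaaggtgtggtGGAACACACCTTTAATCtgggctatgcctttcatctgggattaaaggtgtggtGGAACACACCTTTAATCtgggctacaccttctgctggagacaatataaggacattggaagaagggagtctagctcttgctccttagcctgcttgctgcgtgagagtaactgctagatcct
Sp110 downstream start: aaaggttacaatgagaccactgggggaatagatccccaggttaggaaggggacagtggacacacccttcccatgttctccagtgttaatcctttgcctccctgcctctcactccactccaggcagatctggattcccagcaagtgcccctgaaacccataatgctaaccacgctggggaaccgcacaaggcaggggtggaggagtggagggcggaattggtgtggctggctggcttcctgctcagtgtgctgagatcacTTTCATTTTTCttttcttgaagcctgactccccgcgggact

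The run of 17 bases in the upstream window is part of a longer repeat, since 53 bases occur at 2 places there. A repeat of at least 53 bases was present in 45 of 32851 start windows (0.137%), and the run of 17 bases in 19 of the 32851 (0.0578%). This Sp110 window also shared 50 or more bases in a row with 21 start windows outside the 85 to 86 Mb window, and no other gene of the window did so. Copied start sequences within the window were counted by the same measure, a limit chosen after the sequences were read. Of 15 genes of the window with a start sequence, 5 shared 50 bases in a row with another gene within 1 Mb, namely Sp100, Gm7609, Sp140, A530032D15Rik and C130026I21Rik (33.3%, 95% Wilson interval 15.2 to 58.3%). On the rest of chromosome 1, 20 of 1629 genes did (1.23%, 0.796 to 1.89%). Copies count each other, so that the genes are not independent and the shares were not tested. For predicted genes with a start sequence, the count was 3 of 9 in the window and 1 of 662 on the rest of the chromosome (0.151%). For the protein-coding ones among them, it was 3 of 4 and 1 of 45 (2.22%). The window holds 7 predicted protein-coding genes, and those without a start sequence could not be compared.

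Sp100 (gene 20684, chromosome 1, 85649948 to 85709998, 60.1 kb) had 5 regions in its body or within 50 kb, with scores of 36, 18, 41, 49 and 18 along the chromosome. A single one lay inside the gene, at 85667844 to 85668275 with a score of 49, 18 kb downstream of its later annotated start. At 432 bp it was also the widest of the 7 regions. The nearest region upstream of that start was 21.1 kb away, so that no region was listed at the Sp100 start itself. The region after the gene, at 85748958 to 85749258, had a score of 18. It lay 39.1 kb beyond Sp100 and 2.84 kb from Mir8096, which encodes a microRNA with the following mature sequence, its seed in capitals.
mmu-miR-8096: gGGCACGGuagcugaagagu

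Sp110 (gene 109032, chromosome 1, 85570735 to 85610850, 40.1 kb) also had 5 regions, with scores of 116, 36, 36, 18 and 41 along the chromosome. Of these, 2 lay in its body, at 85573652 to 85573879 and at 85604279 to 85604546, each with a score of 36. The second was the region closest to any annotated start of the 3 genes. Its midpoint lay 521 bp upstream of the upstream Sp110 start, and its near edge was 138 bp before the first letter of the sequence printed above. The gene as annotated extends 6.96 kb beyond this start, so that the region lay upstream of the start and still in the gene body. A region midpoint within 1 kb was found at 118 of 32851 annotated starts in the whole genome (0.359%), and at 8 of 1997 starts on the rest of chromosome 1 (0.401%). The share for the Sp110 start cannot be read against these as a test, because the genes were chosen for their regions.

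Sp140 (gene 434484, chromosome 1, 85587491 to 85645040, 57.5 kb) had 6 regions, with scores of 116, 36, 36, 18, 41 and 49 along the chromosome. Its body held 3 of them, at 85604279 to 85604546 (score 36), 85620542 to 85620785 (18) and 85628822 to 85629078 (41). The first of these is the same region as at the upstream Sp110 start, because Sp110 and Sp140 overlap by 23.4 kb and are read in opposite directions. The Sp140 start lies 13.2 kb inside the annotated gene and 3.19 kb from the upstream Sp110 start. From the Sp140 start, this shared region lay 3.71 kb downstream. The downstream Sp110 start and the Sp140 start point away from each other at 1.89 kb, and no region was listed between them.

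The 3 genes therefore shared most of their regions, and their counts are not independent. The bodies together held 5 different regions, with scores of 36, 36, 18, 41 and 49. A midpoint inside the gene was found for 7.7% of protein-coding genes in the genome, and for 14.4% of those on the rest of chromosome 1. Over the 7 regions the score ran from 18 to 116 with a median of 36, against a median of 33 in the whole list, and 2 regions were below that median. Their widths ran from 228 to 432 bp with a median of 260 bp. Neighbouring midpoints were 8.29 to 81 kb apart with a median of 24.5 kb, against a median of 194 kb between neighbours on the whole of chromosome 1.

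The highest score, 116, belonged to the region at 85555319 to 85555578. It was inside the predicted gene Gm7592, 103 bp from the gene's end and 15.3 kb from Sp110, and 9.3% of the list had a score at least as high. The threshold of 50 kb did not cut through a group of regions for Sp140, where the last region inside was at 32 kb (score 116) and the next outside at 104 kb (score 18). For Sp110 the last inside was at 18.1 kb (score 41) and the next at 57.2 kb (score 49), which is the region in the Sp100 body. For Sp100 they were at 45.5 and 76.2 kb, both with a score of 36.

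**Figure D1:**
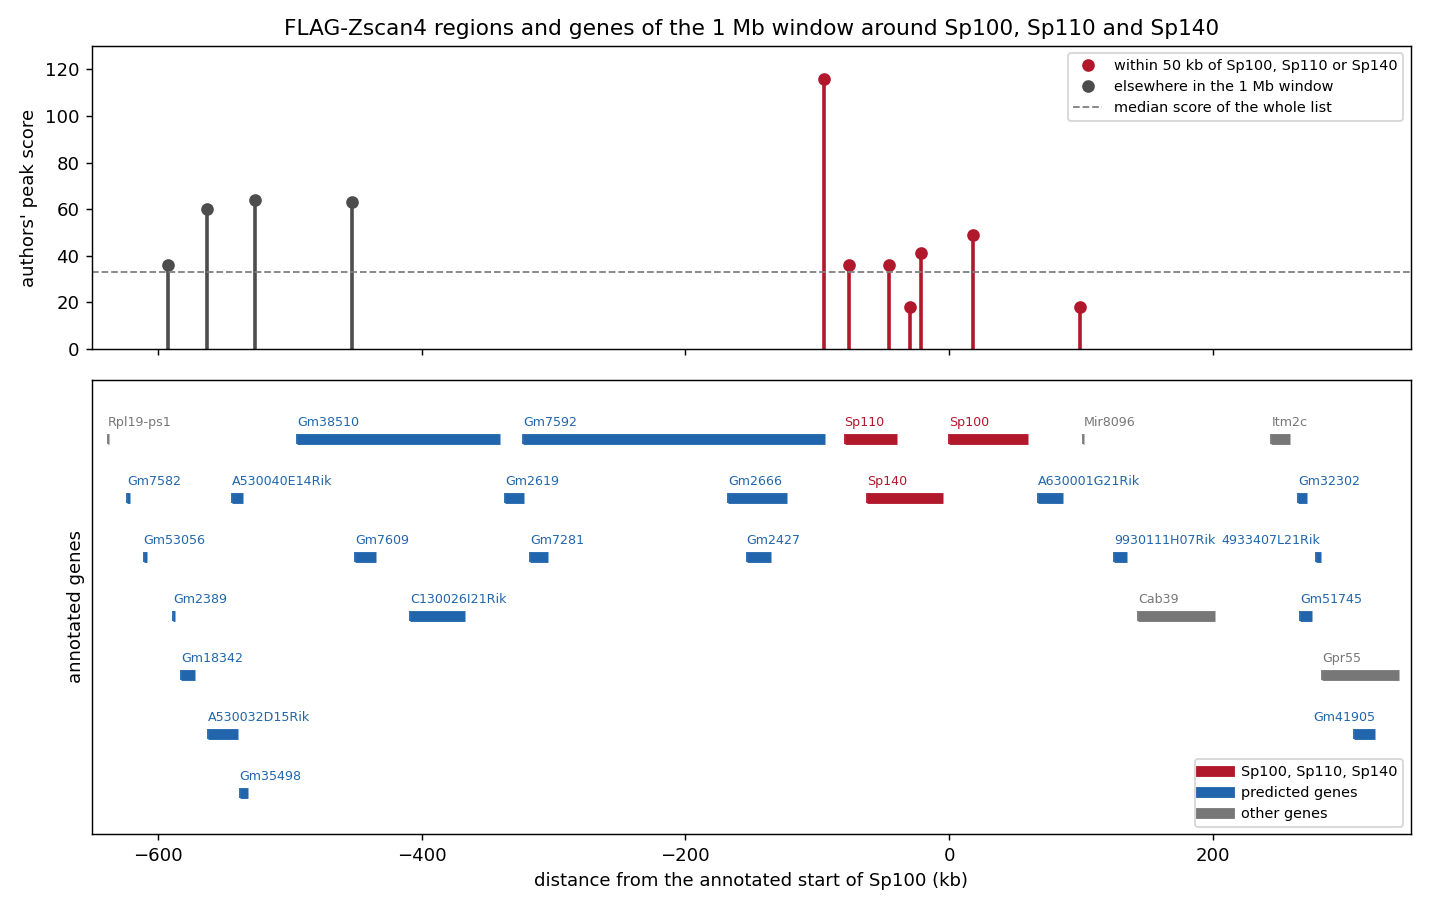
The upper panel plots the authors' peak score of each FLAG-Zscan4 region of the 1 Mb window against its distance from the annotated start of Sp100 in kb, and the lower panel draws the annotated genes on the same axis. The 7 regions within 50 kb of Sp100, Sp110 or Sp140 (red) are separated from the other 4 (grey) by 359 kb, and the dashed line is the median score of 33.

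At the mean density of chromosome 1, 0.407 regions would fall on Sp100 with its flanks, 0.357 on Sp110 and 0.401 on Sp140. Of 21792 protein-coding genes in the genome, 5736 (26.3%) had at least 1 region in the body or within 50 kb, as did 40.1% of those on the rest of chromosome 1. A count of 5 or more was held by 55 protein-coding genes (0.252%) and one of 6 or more by 41 (0.188%). On the rest of chromosome 1, 5 of 1170 protein-coding genes (0.427%) had 6 regions, and none had exactly 5. Those nearest to Sp140 in length were Cd244a (26.6 kb, median score 45), Itln1 (17.2 kb, 45) and Nmnat2 (164 kb, 20.5), of which Nmnat2, an enzyme of NAD synthesis, had 4 regions in its body. Cd244a and Itln1 each lie within 50 kb of the other, so that they share regions and are not independent. Likeness here means the same number of regions in 1 list, and these values chose the genes, so that nothing follows for Sp140.

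The window of 85 to 86 Mb had 11 regions per Mb (95% exact Poisson interval 5.49 to 19.7). The rest of chromosome 1 had 478 regions over 191 Mb, or 2.5 per Mb (2.28 to 2.73). The ratio was 4.4 (exact conditional 95% interval 2.18 to 7.94), which describes a window that was chosen for its regions. Among the 193 windows of 1 Mb on chromosome 1, 2 had 10 or more regions (1.04%), this one and the one from 153 to 154 Mb, each with 11. The median window had 2 regions, 39 windows had none, and the windows on either side of the one described had 3 each.

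**Figure D2:**
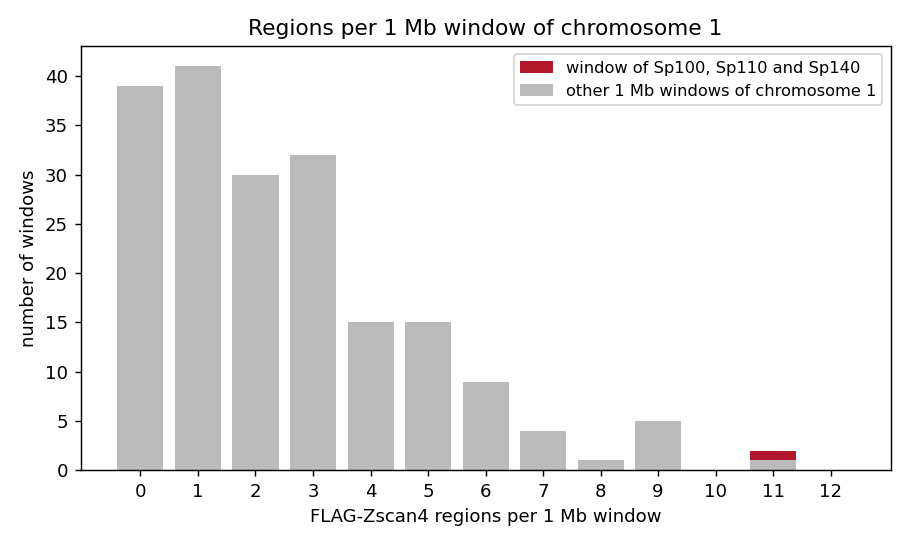
The histogram counts the 193 windows of 1 Mb on chromosome 1 (vertical axis) by their number of FLAG-Zscan4 regions (horizontal axis). The window of Sp100, Sp110 and Sp140 (red) stands at 11 regions with 1 other window, and the median window has 2.

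Scores and widths in the window lay within the range seen on the rest of the chromosome. Scores ran from 18 to 116 with a median of 41 in the window, and from 10 to 1543 with a median of 34 on the rest of chromosome 1 (interquartile range 23 to 50). Widths ran from 227 to 467 bp with a median of 260 bp in the window, and from 219 to 1816 bp with a median of 292 bp on the rest (interquartile range 242 to 417 bp). A score at or above the list's median of 33 was held by 9 of 11 regions in the window and by 247 of 478 (51.7%) on the rest. These differences were not tested. Gene bodies held 7 of the 11 midpoints in the window and 271 of 478 (56.7%) on the rest.

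The regions of the window fell into 2 groups. The first 4 lay between 85057436 and 85197051 among predicted genes, with scores of 36, 60, 64 and 63. The other 7 began with the Gm7592 region, 359 kb further on, and ended 251 kb before the end of the window. The stretch between the groups holds 6 genes whole, all of them predicted, among them Gm7609 and C130026I21Rik. Assembly gaps and the placing of reads in near-identical sequence were not tested.

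Predicted genes, those with a Gm number, a Rik symbol or a clone name, made up 21 of the 29 genes inside the window (72.4%) and 1535 of 2901 on the rest of chromosome 1 (52.9%). By class, the 21 were 7 protein-coding genes, 8 pseudogenes and 6 long non-coding RNA genes. Protein-coding genes were 33.3% of the predicted genes in the window and 3.45% on the rest. By midpoint, 1 other window of chromosome 1, from 72 to 73 Mb, held at least as many predicted genes, 23, and it had 3 regions.

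A region in the body or within 10 kb was found for 8 of the 21 predicted genes in the window (38.1%, 95% Wilson interval 20.8 to 59.1%) and for 166 of 1535 on the rest of the chromosome (10.8%, 9.36 to 12.5%). Over all chromosomes, 6.93% of predicted genes had one. The window was chosen for its regions, so that higher shares in it, at any distance, are a description and were not tested. The 8 genes shared 5 regions and are not independent, and predicted genes were longer in the window, with a median span of 13.8 kb against 3.02 kb on the rest. Gm18342, a pseudogene, had 2 regions within 10 kb (scores 36 and 60), of which it shared the first with the pseudogene Gm2389. The second lay 0.709 kb from the far end of A530032D15Rik, whose start sequence matches that of Sp140. The region of score 64 lay 4.73 kb from the pseudogene Gm35498 and within 10 kb of the long non-coding RNA gene A530040E14Rik. The region of score 63 lay inside Gm38510 and 2.68 kb upstream of the start of Gm7609, whose start sequence matches that of Sp100. Of the predicted genes, 2 had a region in the body, Gm38510 and Gm7592, which at 154 and 229 kb are far longer than the median, against 3.65% of predicted genes on the rest of the chromosome. Within 50 kb the count was 15 of 21 (71.4%), against 29.8% on the rest.

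Among the few regions around genes with a shared start sequence, none were at matching places within 1 kb. Sp100 had 4 regions within 50 kb of its later annotated start, at 45.6, 29.4 and 21.1 kb upstream and 18 kb downstream, and Gm7609 had 1, at 2.68 kb upstream. Sp140 had 5, at 45.3 and 26.9 kb upstream and 3.71, 20 and 28.2 kb downstream. A530032D15Rik had 2, at 13.4 kb upstream and 22.4 kb downstream, and C130026I21Rik had 0, so that no match was possible for it. No pair of genes with a shared start sequence had regions whose distances from the start differed by 1 kb or less, and the closest pair, downstream of Sp140 and A530032D15Rik, differed by 2.46 kb. How far the copied sequence extends beyond the start windows was not measured here, so that these regions need not lie in copied sequence. How reads that fit several places were assigned is not stated, and its part in the counts at these genes was not tested.

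**Figure D3:**
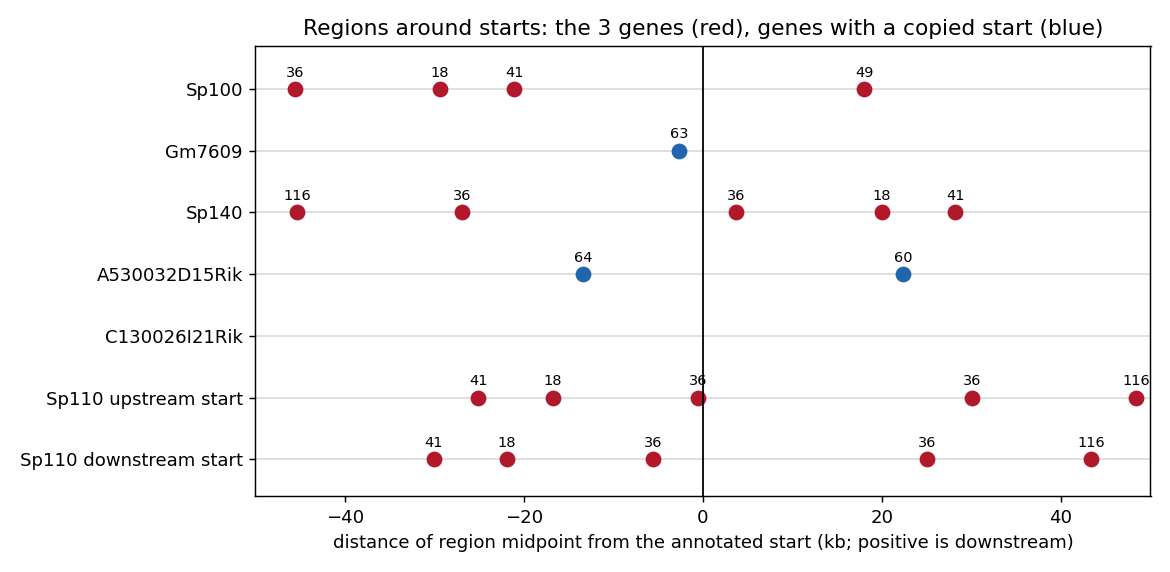
Each row is an annotated start, and each point is a FLAG-Zscan4 region placed by the distance of its midpoint from that start in kb (positive is downstream) and labelled with its score. Genes with a copied start sequence (blue) are shown under the gene they match, Gm7609 under Sp100 and the other 2 under Sp140. The region 0.521 kb from the upstream Sp110 start is the closest to any start drawn, and no region of a blue row is within 1 kb of the distance of a region in the row it matches.

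The start windows were searched on both strands for letters of interferon response sites and of a reported ZSCAN4 site. The core of the interferon-stimulated response element, GAAA and GAAA with 2 letters between them, was in none of the 5 start windows of the 3 genes and in 3.44% of all 32851. TTCNNNGAA, the gamma activated site, was likewise in none of the 5 and in 8.3% of all. TGCACAC, the core of a reported ZSCAN4 site, was in none of the 5 and in 4.4% of all. The form with 3 letters between, chosen after the sequences were read, was in 3 of the 5, both Sp100 windows, which overlap, and the downstream Sp110 window. It was in 2.75% of all windows and also in Gm7609. It was in neither the upstream Sp110 window nor that of Sp140. The sequence under the regions themselves was not analysed here.

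Within 50 kb, other genes of nuclear bodies had regions about as often as genes at large. Among 29 genes for proteins of PML nuclear bodies or SUMO enzymes that act there, 7 had a region within 50 kb (24.1%, against 26.3% of all protein-coding genes), and the median number of regions was 0 in both sets. Cabin1, a subunit of the HIRA histone chaperone complex, had 2 regions in its body. It was the only 1 of the 29 with a region there (3.45%, against 7.7% of all protein-coding genes). Usp7, a deubiquitinase, had its nearest at 3.81 kb (score 27), and Daxx, the H3.3 chaperone of nuclear bodies, at 9.56 kb (score 40). The SUMO ligase genes Pias2 and Pias1 had theirs at 11 and 37.5 kb, Zbtb16 at 44.9 kb and Blm at 49 kb. Pml, which encodes the protein that organises the bodies, had no region within 50 kb, and its nearest was at 154 kb.

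Among 14 genes with a SAND or related domain, or the PHD finger and bromodomain that Sp140 and Sp100 forms carry, 5 had a region within 50 kb (35.7%, against 26.3% of all protein-coding genes), and the median number of regions was 0 in both sets. Baz2b, the longest of the 14 at 311 kb, had 3 in its body. It was the only 1 of the 14 with a region there (7.14%, against 7.7% of all protein-coding genes), and the shares were not tested. Skor2 had its nearest at 0.985 kb (score 28) and Trim28, the co-repressor of KRAB zinc finger proteins, at 8.17 kb (score 33). Gmeb1 had it at 29.6 kb (score 107) and Deaf1 at 41.2 kb (score 69). Aire, the SAND-domain gene of thymic tolerance, had no region within 50 kb.

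Other stretches of gene families in the list had more regions per Mb than the 1 Mb window of the Sp100 genes. The window had 11 regions per Mb (exact Poisson interval 5.49 to 19.7) with a median score of 41 and a median width of 260 bp. The zinc finger stretch of chromosome 4, which is 3 Mb long, had 16.7 per Mb (exact Poisson interval 12.4 to 22) with a median score of 57.5 and a median width of 292 bp. The stretch of chromosome 8 from 19 to 21 Mb had 45 per Mb (36.2 to 55.3) with a median score of 100 and a median width of 306 bp. The intervals of the window and of the chromosome 4 stretch overlap. Density also depended on the bounds. With 50 kb on either side, Sp100 had 31.2 regions per Mb, Sp110 35.7 and Sp140 38.1, and the other stretches were not narrowed in this way. All 3 stretches were chosen for their regions, so that the values are a description and were not tested.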

How the data were processed

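The score values, 1 whole number per region on a scale that is not stated, were deposited by the authors with the start and end positions of 4973 regions from 1 FLAG-Zscan4 immunoprecipitation. Cutadapt, Bowtie2, MACS2, deepTools and the build mm10 are named in the submitters' processing notes, and neither their settings nor the use of the input is given in the sources used here. Positions were deposited by the authors as bp counted from 0 at the start, as the BED layout has it, and are given here 1-based. No read counts came with them, so depth and precision per region are unknown.

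Genes came from a RefSeq table of GRCm38.p6, the assembly that mm10 is built on. Of its 49997 genes 49640 were used, leaving out those without a used chromosome and those starting below 3 Mb on autosomes and the X chromosome. Start sequences came from a RefSeq table of 32851 windows. The gene table gives no exons or strand. Strand was taken from the start windows. Genes were counted in the window when they lay inside it whole, and a predicted gene was one with a Gm number, a Rik symbol or a clone name. Rates have exact Poisson and shares Wilson 95% intervals. Sequences were aligned with Biopython 1.88 in Python 3.11.15, and counters were tested on simulated data. The members, lists and tests were chosen with earlier results of these data known. Named were the 3 genes, other genes of the window with a region within 10 kb, list genes with one within 50 kb, and the genes of chromosome 1 most like each member. C130026I21Rik was named after its values were seen, as were Pml, Aire and the motif with 3 letters between. Alternatives were other flanks, overlap in place of midpoints, the 2510 and 1252 regions of highest score, merging within 1 kb and other windows.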

Additional observations from a re-analysis of the deposited data

How the results depend on the processing

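Of 39 alternatives, 25 left their count within 1.5 times, or their ratio or share within the interval, of the value reported, and 14 did not. The counts near the genes depended on the flank. Within 10 kb there was 1 region at Sp100, 3 at Sp110 and 3 at Sp140, and in the bodies alone 1, 2 and 3. They depended on the score as well. Of the 2510 regions of highest score, 3 were near Sp100, 4 near Sp110, 5 near Sp140 and 9 in the window. With the 1252 highest, 0 were near Sp100, 1 near Sp110, 1 near Sp140 and 4 in the window. The region near Sp110 and that near Sp140 were the same, the one of score 116 inside Gm7592. No region in the bodies of the 3 genes was among the 1252. The ratio of the window to the rest of chromosome 1 lay between 2.8 and 7.8 under all alternatives but the window of the 3 genes with 50 kb on either side, where it was 11.7. The share of predicted genes with a region was 9.52% in the bodies alone and 71.4% within 50 kb, where it was 29.8% on the rest of chromosome 1. Counting copied start sequences by runs of 30 or 100 bases, chosen after seeing the data, left 5 genes in the window. No paired analysis was possible because every group has 1 sample. No replicate could be left out, and the list gives no depth.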
